A study of Mus musculus with 24 samples.

Results

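Mice with immune-mediated bone marrow failure (BMF) received cyclosporine (CSA) alone or no treatment, and CD4 T cells of their marrow were compared. The comparison holds 6 of the 24 libraries of the series, 3 from CSA pools (16, 17 and 18) and 3 from untreated pools (13, 14 and 15), chosen by their labels for cell type and treatment and by no measured value. All mice were female CByB6F1 hybrids of 2 to 5 months with BMF, so the untreated animals also carried the disease, and no healthy mouse stands in the comparison. Cells were sorted by flow cytometry, and each library came from 1 pool of cells from 2 to 3 mice, per the series' design text. The series also holds CD4 pools given ruxolitinib (RUX) or RUX+CSA, and CD8 pools of the same 4 treatments, which enter the difference tests below. The RUX and RUX+CSA pools also enter the estimate of the spread behind each CSA test, and untreated CD8 pools serve the check of the sort.

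Cyclosporine binds cyclophilin and blocks calcineurin, the calcium-dependent phosphatase that releases NFAT factors into the nucleus after T cell receptor engagement. NFAT, often with AP-1, drives Il2 and many other cytokine and activation genes. CD4 T cells help other immune cells through cytokines and include T helper 1 cells, follicular helper cells and the regulatory T cells that hold responses in check. In immune marrow failure, a model of aplastic anaemia, activated T cells in the marrow attack blood-forming cells.

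The 6 libraries held 21.5 to 29.7 M (mega) read pairs in CSA pools and 18.2 to 30 M in untreated pools, and 15027 to 16216 genes in CSA pools and 13240 to 15042 in untreated pools had at least 1 read pair. The sort label matched the coreceptors: Cd4 stood at 1350 to 1720 CPM (counts per M read pairs) in CSA pools and 1220 to 1690 CPM in untreated pools, against 0.4 to 0.627 CPM in untreated CD8 pools. Cd8a stood at 1.21 to 6.63 CPM in CSA pools and 2.39 to 8.13 CPM in untreated pools, against 1010 to 1090 CPM in untreated CD8 pools. Untreated pool 14 stood apart from the rest. On the first principal component over the 12 CD4 libraries, with 30.4% of the variance, it lay at -107, against 9.96 to 34.1 in CSA pools and -41.3 and -4.06 in the other untreated pools. That pool also had almost no neutrophil transcript (S100a8 at 0.532 CPM, against 322 and 1610 CPM in untreated pools 13 and 15). Every pair of pools within a group differed by more than sampling noise.

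Of 13175 genes tested, 132 rose and 63 fell in CSA pools at an adjusted p below 0.05, 1.48% in all, of which 1.00% were higher and 0.478% lower (edgeR's quasi-likelihood test with Benjamini-Hochberg adjustment, fitted on the 12 CD4 libraries, used for every adjusted p here unless another tool is named). Genes past that threshold are called below. The median log2 fold change over all genes was 0, and that of the called genes had a median size of 0.95. Of the called genes, 60 rose and 30 fell by more than 2-fold, and all 195 had the 3 CSA pools entirely above or below the 3 untreated pools. Among all genes tested, 10.2% had CSA pools entirely above and 10.2% entirely below. The number of calls rested on CSA pool 18: without it 36 genes were higher and 12 lower, 47 of these 48 being among the 195. Without CSA pool 17 the numbers were 81 and 30. The 6 compared libraries alone gave 12 higher and 1 lower, and DESeq2 389 and 266. Without the untreated pool that stood apart, edgeR called 117 higher and 87 lower, with 122 genes among the 195. In bulk RNA, fewer cells of a type and less RNA per cell cannot be told apart, and this holds for each group of genes below.

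**Figure D1:**
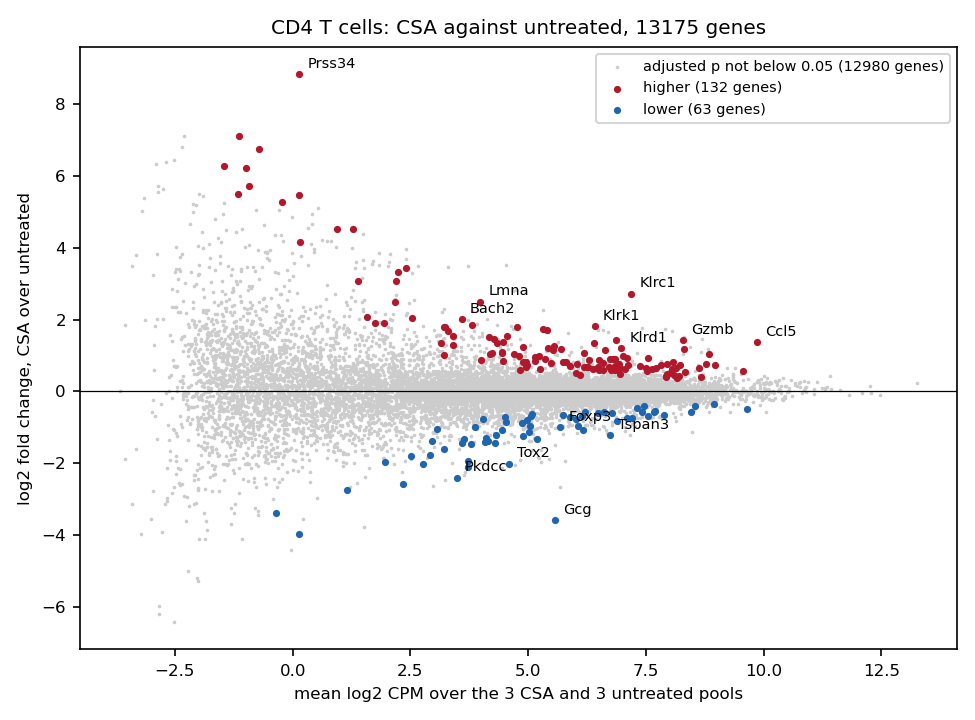
Mean level (log2 CPM over the 6 pools, x axis) against the log2 fold change of CSA over untreated pools (y axis) for 13175 genes. The 132 genes called higher (red) and 63 called lower (blue) lie at low and high levels, with Klrc1, Gzmb and Ccl5 among the more abundant genes that rose and Gcg the most changed of the abundant genes that fell.

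The receptors of the NKG2 family were among the largest rises at high level. Klrc1 encodes NKG2A, an inhibitory receptor of NK cells and effector T cells that pairs with CD94. Klrc1 (chromosome 6, 129666016 to 129678973, minus strand, mm10) had 255, 383 and 495 CPM in CSA pools, against 58.8, 54.6 and 57.7 CPM in untreated pools. The lowest CSA pool was thus more than 4 times the highest untreated pool, and the 3 untreated pools lay close together. The fitted change was 6.62-fold (log2 2.73, SE 0.32, adjusted p = 0.00436), and the call held without any 1 of the 6 libraries. Klrd1, the gene for the partner CD94 (129591811 to 129598775, plus strand), had 184, 196 and 196 CPM in CSA pools, against 60.5, 85.5 and 103 CPM in untreated pools (log2 1.21, SE 0.16, adjusted p = 0.00234). Klrk1 encodes NKG2D, an activating receptor for stress ligands, and lies between the other genes (129610323 to 129623864, minus strand). It had 150.5, 177 and 154 CPM in CSA pools, against 33.6, 51.2 and 52.4 CPM in untreated pools (log2 1.81, SE 0.20, adjusted p = 0.0012). Neither gene's groups overlapped, and both calls held without any 1 library.

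Among the 15 Klr genes tested on chromosome 6, 4 rose, none fell and 9 had the CSA pools entirely above the untreated pools, against 1.00%, 0.478% and 10.2% of all genes. The fourth, Klra7, a Ly49 receptor gene, was near the detection limit, at 1.59, 1.27 and 2.96 CPM in CSA pools and 0.101, 0 and 0 CPM in untreated pools. A count of 3 read pairs is 0.101 to 0.139 CPM in CSA pools and 0.1 to 0.165 CPM in untreated pools. Klrc2, the activating relative of Klrc1, had 2.13, 2.67 and 3.01 CPM in CSA pools and 0.336, 1.03 and 0.268 CPM in untreated pools and did not pass the test (adjusted p = 0.182). Klrg1, a receptor of late effector cells, was at 86.7, 83.9 and 104 CPM in CSA pools and 61.5, 65.4 and 67.0 CPM in untreated pools (adjusted p = 0.0823). Klr genes are close relatives, and read pairs that match several of them may be assigned unevenly, so values of single Klrc and Klra genes are uncertain to that extent. Ncr1, which marks NK cells, lay at 0.0465 to 0.471 CPM in CSA pools and 0.055 to 0.456 CPM in untreated pools. Klrb1c, another NK cell marker, had 4.88, 3.05 and 24.6 CPM in CSA pools and 1.93, 4.67 and 0.055 CPM in untreated pools. Its groups overlapped, its highest value was in CSA pool 18, and it was not called (log2 2.29, SE 1.21, adjusted p = 0.394). The summed level of the NK cell list was 394, 259 and 314.5 CPM in CSA pools and 163, 172 and 256 CPM in untreated pools. Klrk1 is itself a member, with 150, 174 and 154 CPM of the CSA sums and 33.4, 52.8 and 53.7 CPM of the untreated sums. Tyrobp and Fcer1g, further members, overlapped between groups. Of 12 members tested, 10 were above 0 and 3 had the CSA pools entirely above. The sums thus do not by themselves show a rise of the list beside Klrk1.

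The windows around the start sites of Klrc1 and Klrk1 are shown because these neighbouring genes rose together, and that of Gcg because it fell most among called genes whose mean log2 CPM is 3 or more. Each runs from 250 bases before to 50 bases after the start and is written on the gene's own strand (RefSeq, GRCm38.p6; Klrc1 chr6:129678924-129679223, Klrk1 chr6:129623815-129624114, Gcg chr2:62483604-62483903, all minus strand). Capitals mark GGAAA, the core letters bound by NFAT, or its reverse complement.
Klrc1: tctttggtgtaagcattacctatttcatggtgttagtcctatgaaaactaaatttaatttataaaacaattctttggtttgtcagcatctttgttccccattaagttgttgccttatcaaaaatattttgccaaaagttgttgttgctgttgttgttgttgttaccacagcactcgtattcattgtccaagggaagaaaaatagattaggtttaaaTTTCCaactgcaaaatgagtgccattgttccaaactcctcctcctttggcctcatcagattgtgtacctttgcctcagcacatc
Klrk1: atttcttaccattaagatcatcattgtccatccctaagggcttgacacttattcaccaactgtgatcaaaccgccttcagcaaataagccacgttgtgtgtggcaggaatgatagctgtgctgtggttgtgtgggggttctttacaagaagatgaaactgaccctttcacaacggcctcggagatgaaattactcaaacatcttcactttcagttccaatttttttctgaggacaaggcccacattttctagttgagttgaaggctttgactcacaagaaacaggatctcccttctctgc
Gcg: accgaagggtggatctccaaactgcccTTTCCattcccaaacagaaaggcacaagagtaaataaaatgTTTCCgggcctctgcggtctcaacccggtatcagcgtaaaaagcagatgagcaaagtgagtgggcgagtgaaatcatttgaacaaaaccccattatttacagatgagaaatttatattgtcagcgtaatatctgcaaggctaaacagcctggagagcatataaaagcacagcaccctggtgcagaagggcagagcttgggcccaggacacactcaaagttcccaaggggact
The Klrc1 window holds 1 match, the Klrk1 window none and the Gcg window 2. GGAAA on either strand was present in 61.3% of 32851 windows and 59.3% of the 9995 windows matched to tested genes. It was present in 57.3% of the 103 windows matched to genes that rose and 53.1% of the 49 matched to genes that fell. A short core of this kind occurs widely, and these counts describe letters in a window only.

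Other effector genes rose with these receptors. Of 44 tested members of the cytotoxic effector and NK receptor list, 9 rose and none fell, and the list's median log2 fold change was 0.32, against 132 and 63 of 13175 and a median of 0 over all genes. The 9 include Klrc1, Klrd1, Klrk1 and Klra7, already counted above. The count of 9 was 5 without CSA pool 18, and DESeq2 called 14 members higher and 5 lower. Gzmb, the gene for the killing protease granzyme B, had 442, 497 and 601 CPM in CSA pools, against 186, 230 and 154 CPM in untreated pools (log2 1.43, SE 0.22, adjusted p = 0.0112, and 0.0555 without CSA pool 18). Ccl5, a chemokine of effector T cells, had 1150, 1551 and 1790 CPM in CSA pools, against 512, 622 and 596 CPM in untreated pools. Its adjusted p of 0.000247 was the smallest reached, shared with Lgals3, Xdh and Tspan2 (log2 1.38, SE 0.13). Serpinb9, an inhibitor that protects cells from granzyme B, had 246, 273 and 365 CPM in CSA pools and 206, 170 and 153 CPM in untreated pools (adjusted p = 0.042). Lgals1 and S100a6, which encode a sugar-binding and a calcium-binding protein of activated cells, also rose (log2 0.58 and 0.75, adjusted p = 0.0359 and 0.00321).

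Several other effector genes did not pass the test. Prf1, which encodes the pore-former perforin, had 61.1, 77.7 and 76.7 CPM in CSA pools and 50.5, 49.5 and 85.8 CPM in untreated pools (adjusted p = 0.692). Gzma lay at 7.19 to 10.3 CPM in CSA pools and 5.46 to 17.0 CPM in untreated pools. Gzmk, another granzyme, had 19.0, 23.3 and 27.4 CPM in CSA pools and 200.2, 34.8 and 202 CPM in untreated pools, groups that did not overlap but did not pass the test (log2 -2.65, SE 0.63, adjusted p = 0.0944). Eomes, an effector factor, had 22.4, 17.2 and 20.6 CPM in CSA pools and 73.4, 29.4 and 83.7 CPM in untreated pools (log2 -1.63, SE 0.40, adjusted p = 0.0917). In both genes untreated pool 14, the pool that stood apart, was the lowest of the untreated pools. The death ligand Fasl lay at 94.3 to 128 CPM in CSA pools and 99.1 to 128.5 CPM in untreated pools (log2 -0.07, adjusted p = 0.899).

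Among T helper 1 genes 3 of 21 rose and none fell, against 1.00% and 0.478% of all genes, with a median of 0.28. Il12rb2, a chain of the IL-12 receptor, had 163, 229 and 186 CPM in CSA pools, against 79.4, 83.1 and 51.7 CPM in untreated pools (log2 1.43, SE 0.16, adjusted p = 0.000599). The others were Ccl5 and Gzmb, already counted in the cytotoxic list. Tbx21, which encodes the defining factor T-bet, was at 264, 322 and 281 CPM in CSA pools and 280, 241 and 194 CPM in untreated pools (log2 0.28, SE 0.12, adjusted p = 0.274). Ifng, the hallmark cytokine, had 187, 182 and 86.3 CPM in CSA pools and 96.2, 115 and 176 CPM in untreated pools, with broad overlap (log2 0.23, SE 0.35, adjusted p = 0.801). No gene of the T helper 2 list (14 tested) or the T helper 17 list (12 tested) was called.

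**Figure D2:**
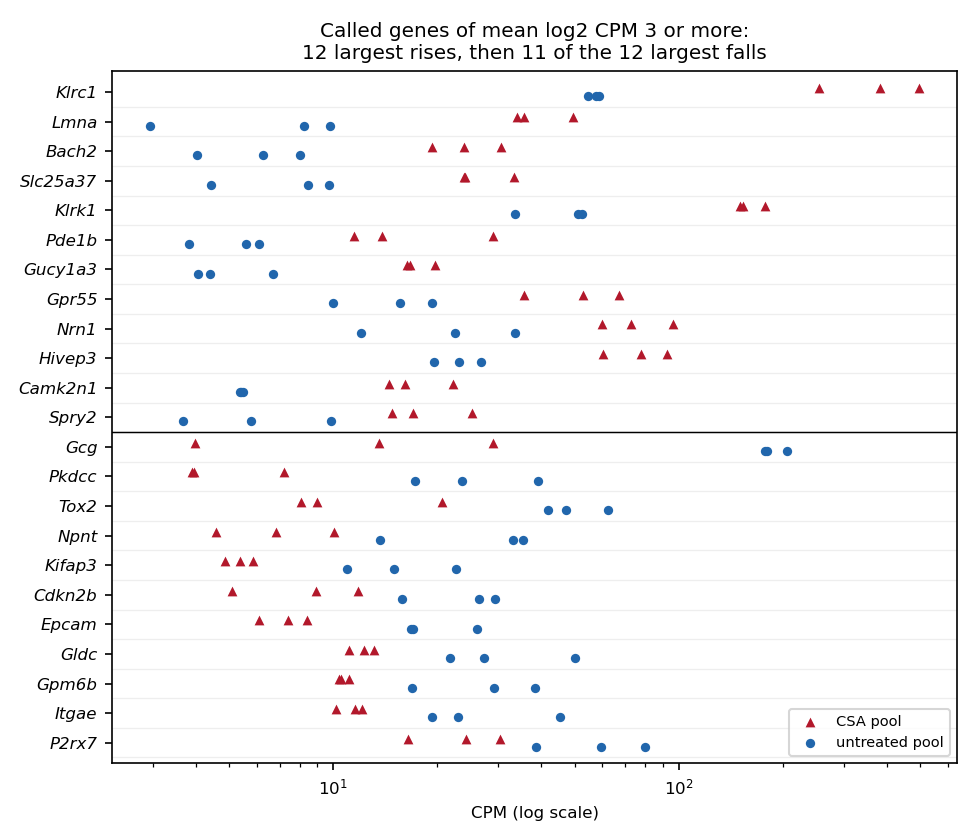
CPM on a log axis in each CSA pool (red triangles) and untreated pool (blue circles) for the 12 named genes with the largest rises (upper rows) and 11 of the 12 with the largest falls (lower rows) among called genes whose mean log2 CPM is 3 or more. Each gene's 2 groups are apart, with the widest separations in Klrc1 and Gcg.

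Beyond the receptors, the largest rises at moderate level fell in genes of varied function. Lmna, the gene for lamin A and C of the nuclear envelope, had 35.6, 33.9 and 49.3 CPM in CSA pools, against 2.96, 9.81 and 8.21 CPM in untreated pools (log2 2.51, SE 0.38, adjusted p = 0.00991). Hivep3, a large zinc finger factor, had 60.4, 77.6 and 92.3 CPM in CSA pools, against 26.8, 23.2 and 19.6 CPM in untreated pools (log2 1.72, SE 0.26, adjusted p = 0.00749). Camk2n1, an inhibitor of the calmodulin-dependent kinase CaMKII, had 14.4, 16.1 and 22.2 CPM in CSA pools, against 5.48, 5.38 and 5.42 CPM in untreated pools (log2 1.69, adjusted p = 0.0031). The calls of these 3 genes held without any 1 of the 6 libraries.

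The other large rises were these. Pde1b, a phosphodiesterase switched on by calmodulin, had 11.5, 13.8 and 28.98 CPM in CSA pools, against 6.08, 3.83 and 5.58 CPM in untreated pools (adjusted p = 0.0161). Gucy1a3, a subunit of the nitric oxide receptor guanylate cyclase, rose by 1.79 on the log2 scale, with 16.3 to 19.6 CPM in CSA pools and 4.06 to 6.69 CPM in untreated pools. Gpr55, a lysophospholipid receptor, rose by 1.79, with 35.8 to 67.2 CPM in CSA pools and 9.98 to 19.2 CPM in untreated pools. Spry2, a feedback inhibitor of growth factor and MAP kinase signalling, rose by 1.56 (adjusted p = 0.047), and Nrn1, which encodes neuritin, a surface protein, by 1.75 (adjusted p = 0.036). The calls of Gucy1a3, Gpr55, Spry2 and Nrn1 were each lost without CSA pool 17 and without CSA pool 18, and that of Pde1b without CSA pool 18. Gucy1a3 was also lost without untreated pool 14 or 15, Gpr55 without 13, Spry2 without 13 or 15 and Nrn1 without 15.

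Slc25a37, the mitochondrial iron importer mitoferrin, had 24.0, 24.1 and 33.3 CPM in CSA pools, against 8.43, 4.42 and 9.71 CPM in untreated pools (log2 1.85, SE 0.33, adjusted p = 0.0155). It is much used by red cell precursors, and the summed erythroid markers were also higher in CSA pools. They stood at 589, 444 and 373 CPM in CSA pools and 68.3, 55.8 and 150 CPM in untreated pools. Within the CSA pools the order was opposite, the erythroid sum being highest in pool 16 and Slc25a37 in pool 18, while in untreated pools the order was the same. The part of erythroid cells in this result was not tested, and the Slc25a37 call was lost without CSA pool 18.

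Of 29 tested regulatory T cell genes none rose and 4 fell, against 1.00% and 0.478% of all genes, with a median of -0.17. Without CSA pool 18, 1 was called, and DESeq2 called 8 lower and 1 higher. Foxp3 (chromosome X, 7579676 to 7595243), the gene for the lineage's defining factor, had 40.1, 33.2 and 36.4 CPM in CSA pools, against 62.3, 58.5 and 98.0 CPM in untreated pools. The CSA pools lay close together and below each untreated pool (log2 -0.99, SE 0.17, adjusted p = 0.0127, and 0.0636 without CSA pool 18). Its exons overlap those of Ppp1r3fos and Ccdc22, and read pairs there cannot be told apart without strand. Izumo1r, which encodes folate receptor 4 of regulatory and anergic T cells, had 52.9, 43.8 and 46.5 CPM in CSA pools, against 75.1, 114 and 91.1 CPM in untreated pools (log2 -0.97, SE 0.15, adjusted p = 0.00752), a call that held without any 1 library. Tnfrsf9, the gene for the costimulatory receptor CD137, had 94.5, 91.4 and 80.9 CPM in CSA pools, against 117, 161 and 193 CPM in untreated pools (log2 -0.82, adjusted p = 0.0188). Itgae, the gene for the integrin chain CD103, had 10.2, 12.2 and 11.5 CPM in CSA pools, against 22.9, 19.4 and 45.4 CPM in untreated pools (log2 -1.37, adjusted p = 0.039). The call of Tnfrsf9 was lost without CSA pool 18, and that of Itgae without any 1 CSA pool or untreated pool 15.

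Other core genes of this lineage did not pass the test. Ikzf2, which encodes Helios, had 43.4, 45.4 and 58.4 CPM in CSA pools and 89.0, 59.4 and 113 CPM in untreated pools (log2 -0.83, adjusted p = 0.0856). Ikzf4 had 9.29, 6.05 and 5.00 CPM in CSA pools and 13.0, 13.7 and 21.8 CPM in untreated pools (log2 -1.25, adjusted p = 0.0748). Il2ra, the gene for the high-affinity IL-2 receptor chain, overlapped between groups, at 53.6 to 135 CPM in CSA pools and 124 to 236 CPM in untreated pools (log2 -0.73, adjusted p = 0.382). The inhibitory receptor Ctla4 went the other way, at 220, 233 and 266 CPM in CSA pools and 150, 229 and 201 CPM in untreated pools, without passing (log2 0.31, adjusted p = 0.585).

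Of 24 follicular helper genes tested, none rose and 4 fell, against 1.00% and 0.478% of all genes, with a median of -0.18. The count of 4 was 2 without CSA pool 17, CSA pool 18 or untreated pool 14. Tox2, an HMG-box factor of follicular and exhausted cells, had 8.98, 8.05 and 20.6 CPM in CSA pools, against 62.3, 47.2 and 41.8 CPM in untreated pools (log2 -2.01, SE 0.40, adjusted p = 0.0359). Sh2d1a, which encodes the adaptor SAP needed for help to B cells, had 112, 103 and 101 CPM in CSA pools, against 184.5, 149 and 195 CPM in untreated pools (log2 -0.74, SE 0.12, adjusted p = 0.00726), and its call held without any 1 library. P2rx7, an ATP-gated channel, and Angptl2, a secreted angiopoietin-like protein, also fell (log2 -1.33 and -0.95, adjusted p = 0.0359 and 0.0196). The call of Tox2 was lost without CSA pool 16 or 17 or untreated pool 13 or 14, that of P2rx7 without CSA pool 17 or 18 or untreated pool 13 or 14, and that of Angptl2 without CSA pool 16 or 18 or untreated pool 14. The defining genes of the lineage were not called. Cxcr5, its chemokine receptor, had 11.5, 7.25 and 13.6 CPM in CSA pools and 25.7, 15.5 and 25.1 CPM in untreated pools (log2 -1.04, adjusted p = 0.0921). Bcl6, its factor, had 18.9, 15.5 and 26.9 CPM in CSA pools and 9.11, 9.11 and 14.7 CPM in untreated pools (log2 0.90, adjusted p = 0.0752).

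The largest falls included genes not usually linked with T cells. Gcg (chromosome 2, 62474530 to 62483653), the gene for proglucagon, the precursor of gut and pancreatic hormones, had 28.9, 13.6 and 3.98 CPM in CSA pools, against 180, 206 and 178 CPM in untreated pools. Each untreated pool was more than 6 times the highest CSA pool (log2 -3.58, SE 0.67). Its adjusted p was 0.045, and it passed in only 1 of the 6 fits that left out a library. Pkdcc, a secreted tyrosine kinase, had 7.19, 3.94 and 3.89 CPM in CSA pools, against 23.6, 17.2 and 39.0 CPM in untreated pools (log2 -2.40, SE 0.30, adjusted p = 0.00196), a call that held without any 1 library. Npnt, Epcam and Gpm6b, which encode an extracellular matrix protein, an adhesion molecule and a membrane protein, fell by 1.93, 1.45 and 1.40 on the log2 scale. So did Kifap3, a kinesin partner (log2 -1.60), Cdkn2b, the cell cycle inhibitor p15 (log2 -1.47), and Gldc, the glycine decarboxylase (log2 -1.44). The call of Gldc held without any 1 library and that of Kifap3 without any but CSA pool 18. Those of Npnt, Cdkn2b, Epcam and Gpm6b were lost without CSA pool 17 or 18 or untreated pool 14, those of Cdkn2b and Gpm6b also without untreated pool 15, and that of Gpm6b also without CSA pool 16.

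The components of the drug's own pathway come next. None of 26 calcineurin and NFAT signalling components was called, against 1.48% of all genes, with a median of -0.04. At that share a list of this size may well hold no call. Ppp3ca, the catalytic calcineurin subunit, was at 157.5, 162 and 186 CPM in CSA pools and 131, 123 and 128 CPM in untreated pools (log2 0.41, SE 0.10, adjusted p = 0.0645). Nfatc1 was at 950.5, 1268 and 1080 CPM in CSA pools and 840, 1129 and 821 CPM in untreated pools (log2 0.24, adjusted p = 0.394). Rcan1, which encodes a calcineurin regulator and is a classic calcineurin-driven transcript, had 16.2, 14.5 and 18.1 CPM in CSA pools and 21.2, 36.3 and 20.6 CPM in untreated pools. The groups were apart but did not pass the test (log2 -0.68, SE 0.22, adjusted p = 0.152). None of 18 calcium entry and store genes was called.

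Among 40 calcineurin and NFAT target genes, 2 rose and 1 fell, against 1.00% and 0.478% of all genes, with a median of 0.09. Egr3, an early growth response factor, had 34.1, 31.8 and 28.4 CPM in CSA pools, against 13.2, 15.3 and 15.8 CPM in untreated pools (log2 1.09, SE 0.16, adjusted p = 0.00397). Egr1 had 164, 161 and 220 CPM in CSA pools, against 85.6, 96.6 and 93.6 CPM in untreated pools (log2 0.98, SE 0.18, adjusted p = 0.0188), lost without CSA pool 18 or untreated pool 13. The one that fell was Tnfrsf9. Egr2, the relative of both factors, overlapped between groups, at 23.7 to 52.7 CPM in CSA pools and 47.4 to 65.3 CPM in untreated pools (log2 -0.38, adjusted p = 0.469). Nr4a1, an orphan nuclear receptor induced by T cell receptor signals, had 142, 119 and 251 CPM in CSA pools and 33.9, 41.5 and 82.7 CPM in untreated pools (log2 1.70, SE 0.44, adjusted p = 0.111), and passed without untreated pool 15 (adjusted p = 0.0479). Il2 was low everywhere, at 1.62, 2.39 and 0.88 CPM in CSA pools and 2.65, 5.24 and 2.95 CPM in untreated pools (log2 -1.14, SE 0.53, adjusted p = 0.301). None of 23 T cell cytokine genes was called in either direction.

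Of 36 immediate early and AP-1 genes, 3 rose and none fell (1.00% and 0.478% of all genes), with a median of 0.40, and 12 had the CSA pools entirely above the untreated pools (10.2% of all genes). The third beside Egr1 and Egr3 was Dusp5, a nuclear phosphatase of ERK, with 128.5, 145 and 171 CPM in CSA pools, against 73.2, 92.3 and 107 CPM in untreated pools (log2 0.71, adjusted p = 0.0326), a call lost without 4 of the 6 libraries, CSA pools 17 and 18 and untreated pools 13 and 14. The classic member Fos ranged from 93.9 to 257 CPM in CSA pools and 80.3 to 130 CPM in untreated pools (log2 0.62, SE 0.64, adjusted p = 0.691). Cd69, an early activation marker, lay at 96.7 to 181 CPM in CSA pools and 82.2 to 113 CPM in untreated pools (log2 0.51, adjusted p = 0.284). The helper ligand Cd40lg lay at 138 to 195 CPM in CSA pools and 114 to 186 CPM in untreated pools (log2 0.22, adjusted p = 0.594).

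Among 34 T cell receptor signalling components, 1 rose and 1 fell, against 1.00% and 0.478% of all genes. Pag1, a membrane adaptor that brings the inhibitory kinase Csk to Src family kinases, had 61.7, 67.6 and 75.9 CPM in CSA pools, against 33.7, 28.03 and 29.7 CPM in untreated pools (log2 1.17, SE 0.17, adjusted p = 0.00401). Fyn, one of those Src family kinases, had 605, 753.5 and 670 CPM in CSA pools, against 989, 924 and 931 CPM in untreated pools (log2 -0.49, SE 0.09, adjusted p = 0.0196). Both sets of pools were apart, the Fyn change being small at a high level, and the Fyn call was lost without CSA pool 16 or 18.

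Of 34 naive and memory T cell genes tested, 3 rose and none fell (1.00% and 0.478% of all genes), and the median was 0.48, or 0.13 without CSA pool 18. Bach2, a repressor that restrains effector differentiation, had 19.3, 23.9 and 30.6 CPM in CSA pools, against 6.25, 4.02 and 7.99 CPM in untreated pools (log2 2.02, SE 0.26, adjusted p = 0.00213), and its call held without any 1 library. Its exons overlap those of Bach2os, so the pair cannot be told apart without strand. Satb1, a chromatin organizer, and Foxp1, a quiescence factor, had their highest values in CSA pool 18. Satb1 stood at 118, 135.5 and 205 CPM in CSA pools, against 78.0, 77.9 and 47.8 CPM in untreated pools (log2 1.17, adjusted p = 0.0377). Foxp1 stood at 104, 125 and 173 CPM in CSA pools, against 78.9, 84.8 and 84.3 CPM in untreated pools (log2 0.69, adjusted p = 0.0303). Both calls were lost without CSA pool 17 or 18 or any 1 untreated pool. Il7r, the IL-7 receptor gene, was at 179, 171 and 459 CPM in CSA pools and 189, 216 and 129 CPM in untreated pools and was not called (adjusted p = 0.508). Tcf7, the factor TCF-1, was at 180, 175 and 330 CPM in CSA pools and 301, 195 and 220.5 CPM in untreated pools (log2 -0.07, adjusted p = 0.943).

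Of 43 homing and chemokine genes, 4 rose and 1 fell (1.00% and 0.478% of all genes), and 1 and none without CSA pool 18. Cd44, the hyaluronan receptor of activated and memory cells, had 297, 322 and 376 CPM in CSA pools, against 217, 235 and 195 CPM in untreated pools (log2 0.62, SE 0.11, adjusted p = 0.0155). S1pr4, a sphingosine phosphate receptor, and Xcr1, the receptor for XCL1, rose by 0.62 and 0.89 on the log2 scale. Among 29 genes of inhibitory receptors and exhaustion, Pdcd1lg2, the gene for the PD-1 ligand PD-L2, rose, with 53.6, 60.1 and 47.2 CPM in CSA pools against 18.9, 31.7 and 30.3 CPM in untreated pools (log2 1.00, SE 0.18, adjusted p = 0.0136). Pdcd1 itself lay at 488 to 736 CPM in CSA pools and 607 to 922 CPM in untreated pools (log2 -0.34, adjusted p = 0.363). Of 32 BCL2 family and death receptor genes, the one called was Bcl2l11, which encodes the death-promoting BIM, with 80.6, 113 and 128 CPM in CSA pools against 46.9, 64.2 and 40.8 CPM in untreated pools (log2 1.08, adjusted p = 0.0284, lost without CSA pool 17 or 18 or untreated pool 13 or 15). Bcl2 itself overlapped, at 271 to 351 CPM in CSA pools and 219 to 521 CPM in untreated pools. In 26 costimulatory and TNF superfamily genes Tnfrsf9 and Sh2d1a fell, and in 28 NF-kappa-B genes Tnfrsf9 fell. Tox2, described above, fell among the 29 inhibitory receptor and exhaustion genes. For each of these lists, too, the shares of all genes were 1.00% called higher and 0.478% lower.

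**Figure D3:**
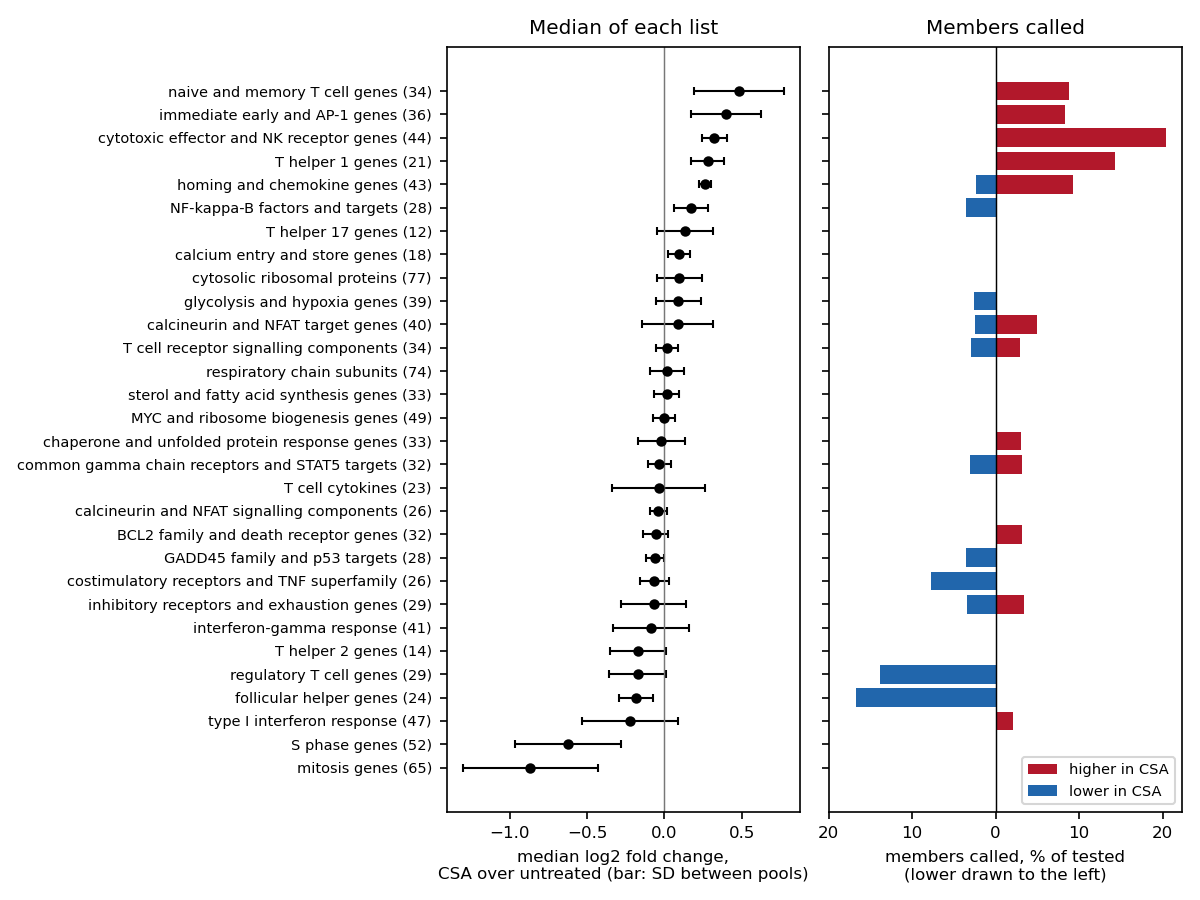
Median log2 fold change of CSA over untreated pools for 30 gene lists (left, bars are the SD of the list's median between pools) and the share of tested members called higher (red, right) or lower (blue, left), with the number tested in brackets. Cytotoxic and NK receptor genes have the largest share called higher (9 of 44), follicular and regulatory T cell genes the largest shares called lower (4 of 24 and 4 of 29), and mitosis genes the lowest median (-0.86) with no member called.

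No cell cycle gene was called, while the medians of both lists were below the all-gene median of 0. All 65 mitosis genes had a log2 fold change below 0 (median -0.86), 25 with the CSA pools entirely below the untreated pools. Of 52 S phase genes, 51 were below 0 (median -0.62), 19 entirely below. Of all genes, 10.2% lay entirely below. The summed level of the mitosis list was 5917, 5099 and 3998 CPM in CSA pools and 11150, 5824 and 8182 CPM in untreated pools. The lowest untreated pool, again pool 14, was thus below the highest CSA pool, and untreated pool 13 was far above the rest. Mki67, a marker of cycling cells, had 190, 182 and 117 CPM in CSA pools and 409, 164 and 232 CPM in untreated pools (log2 -0.72, SE 0.33, adjusted p = 0.326). DESeq2 called 15 mitosis and 10 S phase genes lower, and without untreated pool 14 edgeR called 3 and 4.

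Calls among interferon response, STAT5 and metabolic genes are given next, beside 1.00% of all genes called higher and 0.478% called lower. Of 41 interferon-gamma response genes none was called (median -0.09). Of 47 type I interferon genes 1 rose, Ifitm1, an antiviral membrane protein, with 30.9, 33.2 and 32.9 CPM in CSA pools against 10.8, 16.2 and 11.3 CPM in untreated pools (log2 1.34, SE 0.23, adjusted p = 0.0122). Gzmb rose and Tnfrsf9 fell among 32 genes of the common gamma chain and STAT5, while the feedback inhibitors Cish and Socs1 overlapped between groups (log2 -0.44 and -0.66, adjusted p = 0.624 and 0.265). No gene was called among 74 respiratory chain subunits, 33 sterol and fatty acid synthesis genes, 49 MYC and ribosome biogenesis genes or 77 cytosolic ribosomal proteins, whose medians lay between -0.004 and 0.10. The lactate dehydrogenase chain Ldhb fell among 39 glycolysis and hypoxia genes (log2 -1.06, adjusted p = 0.0289), the cyclin Ccng1 among 28 GADD45 and p53 genes (log2 -0.40, adjusted p = 0.047), and the stress sensor Atf6 rose among 33 chaperone and unfolded protein response genes (log2 0.89, adjusted p = 0.00513). The Ccng1 call was lost without any 1 library, those of Ldhb and Ifitm1 without CSA pool 18 and that of Ldhb also without CSA pool 17 or untreated pool 14 or 15.

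Transcripts of other marrow cells differed between the pools. The 14 erythroid genes tested were all above 0 (median 3.65), 13 had the CSA pools entirely above, and Klf1, Gata1 and Sptb rose, against 10.2% of all genes entirely above and 1.00% called higher. None was called without CSA pool 17 or 18, and 11 were without untreated pool 15. Their sum was 589, 444 and 373 CPM in CSA pools and 68.3, 55.8 and 150 CPM in untreated pools. The adult globin genes Hba-a1 and Hbb-bs are listed at 0 in every library. The 20 neutrophil genes had a median of 1.52 and none was called, with sums of 21240, 4270 and 8327 CPM in CSA pools and 1991, 213 and 11120 CPM in untreated pools, which overlap. The 10 basophil and mast cell genes tested were all above 0 (median 2.76), 5 had the CSA pools entirely above, and 1 was called higher. Their sums overlapped, at 160, 38.1 and 75.8 CPM in CSA pools and 21.25, 10.5 and 88.8 CPM in untreated pools. The one called, Prss34, had 26.1, 4.30 and 12.8 CPM in CSA pools and 0, 0 and 0.107 CPM in untreated pools, the latter below a count of 3. The 28 macrophage genes had a median of -1.39, with sums of 3417, 1321 and 1349 CPM in CSA pools and 1020, 2151 and 2248 CPM in untreated pools. Lyz2, also on the neutrophil list, gave 2180, 412 and 399 CPM of the CSA sums and 192, 111 and 1200 CPM of the untreated sums. Of the 28 genes, 24 were below 0 and 12 had the CSA pools entirely below, against 10.2% of all genes. Many were highest in untreated pool 14, the pool that stood apart. C1qb had 28, 109 and 43.3 CPM in untreated pools 13, 14 and 15, and 20.7, 12.1 and 9.43 CPM in CSA pools. Lyz2 and Itgam, by contrast, were lowest in pool 14. The engulfment receptor Axl was the one called, at 62.5, 42.9 and 45.6 CPM in CSA pools and 79.7, 136 and 103 CPM in untreated pools. The summed B and plasma cell list lay at 203 to 497 CPM in CSA pools and 435 to 1162 CPM in untreated pools, with none of 17 members called. Of 11 dendritic cell genes Itgax and Xcr1 rose and Fscn1 fell, and of 12 NK cell genes Klra7 and Klrk1 rose. Untreated CD8 T cell pools also held Itgax (22.2 to 48.2 CPM), Xcr1 (17.7 to 25.2 CPM) and Klrk1 (180 to 307 CPM). Rises in these 3 genes therefore do not tell dendritic or NK cells from T cells. No gene was called among 2 CD8 T cell, 5 eosinophil, 9 platelet, 12 stem and progenitor and 12 stroma and endothelial genes. The 19 T cell identity genes had a median of 0.07 and none was called. The part of other cells in the T cell results was not tested.

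**Figure D4:**
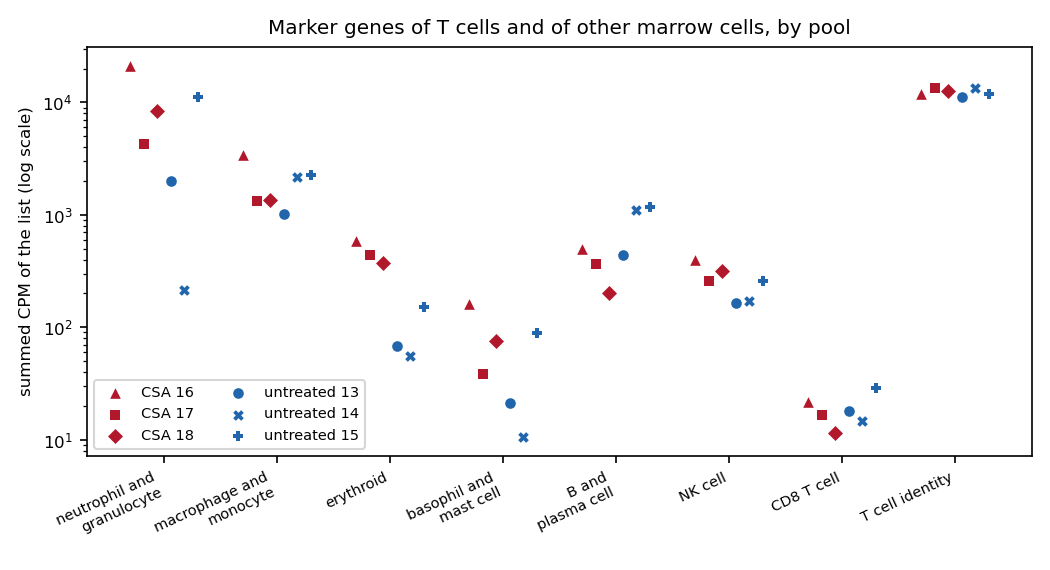
Summed CPM (log axis) of marker lists in each CSA pool (red) and untreated pool (blue). Erythroid sums lie higher in all 3 CSA pools (373 to 589 CPM) than in untreated pools (55.8 to 150 CPM), neutrophil sums overlap, and so do the sums of T cell identity genes.

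CD4 pools given RUX+CSA or RUX, none of which enters the contrast above, show how the called genes stood when CSA was added to RUX. These pools do enter the estimate of the spread behind the calls. Genes steady within the RUX and RUX+CSA groups thus passed more readily, and the shares of all genes below are not an equal reference for the called genes. All 132 genes that rose with CSA alone also had a higher fitted level in RUX+CSA than in RUX pools, and 115 of them (87.1%) had the 3 RUX+CSA pools entirely above the 3 RUX pools, against 11.0% of all genes tested. Of the 63 that fell, 60 were lower, 45 of them (71.4%) entirely below, against 11.1% of all genes. Klrc1 had 411, 329 and 307 CPM in RUX+CSA pools and 33.3, 78.6 and 50.8 CPM in RUX pools, ranges that overlap those of CSA and untreated pools. Foxp3 had 40.6, 30.1 and 35.8 CPM in RUX+CSA pools and 69.9, 72.4 and 69.1 CPM in RUX pools. Gzmb had 209, 146 and 272 CPM in RUX+CSA pools and 103, 94.7 and 125 CPM in RUX pools, each below the level without RUX. Whether the CSA difference itself changed with RUX was tested for each of the 13175 genes, and none passed (0%; 629 at an unadjusted p below 0.05). The smallest p values belonged to Dpysl2 (log2 difference 0.96, adjusted p = 0.338), Sh3rf1 (0.81) and Ccl5 (-0.83, both adjusted p = 0.797). DESeq2 called 17 genes in this test.

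**Figure D5:**
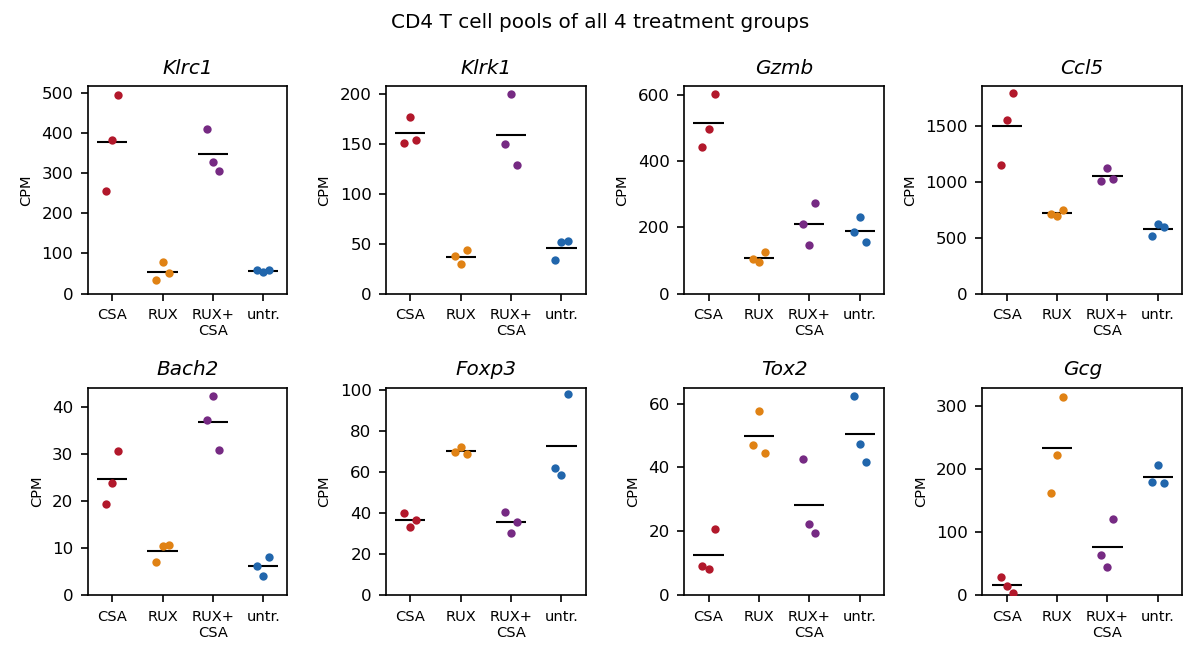
CPM of 8 named genes in the 3 CD4 pools of CSA, RUX, RUX+CSA and untreated mice (points), with the group mean (line). Klrc1, Klrk1 and Bach2 are high and Foxp3 is low in both groups that received CSA, while Gzmb and Ccl5 in RUX+CSA pools lie below their CSA levels.

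The same difference was set against that in CD8 cells, whose pools also share no library with it. Of the 132 genes that rose in CD4 cells, 127 (96.2%) had a CD8 fold change above 0, with a median of 0.42, and 21 (15.9%) had the CD8 CSA pools entirely above, against 8.63% of all genes. Of the 63 that fell, 55 (87.3%) were below 0 in CD8 cells, with a median of -0.29, and 6 (9.52%) were entirely below, against 8.24% of all genes. These counts need all 3 CD8 CSA pools, and pool 6 differed from pools 4 and 5 in several genes. Gzmb had 1750, 1700 and 735 CPM in CD8 CSA pools 4, 5 and 6, and 585 to 788 CPM in untreated CD8 pools. Pkdcc had 6.985, 5.264 and 51.45 CPM, and 22.91 to 36.25 CPM. In other genes, such as Gucy1a3, pool 6 stayed above the untreated pools, at 11.04 CPM against 7.72 to 9.475 CPM. The difference between the cell types passed for none of 13476 genes (0%; 1005 at an unadjusted p below 0.05). The smallest p values belonged to Adam8 (log2 difference 1.01), Dpysl2 (-0.73) and Xdh (0.85), each with an adjusted p of 0.267. Foxp3 reached the same adjusted p, with a log2 fold change of -0.99 in CD4 and 0.72 in CD8 cells (difference -1.72, SE 0.36). In CD8 cells Foxp3 was low, at 2.64, 4.93 and 5.29 CPM in CSA pools and 1.81, 2.81 and 3.19 CPM in untreated pools, which overlap. DESeq2 called 15 genes in the test between cell types, and edgeR called none without CD8 CSA pool 6. A missed threshold here does not show that CSA acted alike in both cell types.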

How the data were processed

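RNA of CD4 and CD8 T cell pools was sequenced from libraries made with a SMART-Seq mRNA kit, per the labels' protocols. The deposited table holds raw counts, whole numbers of read pairs per gene for 24421 genes, with no scaling. Per the file headers, featureCounts 2.0.3 counted them over exons, without a strand option. Alignment used STAR and mm10, per the submitters' processing notes, and the STAR version is not given in the sources used here.

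In R 4.3.3, edgeR 4.0.16 gave TMM factors (0.975 to 1.03), removed low counts with filterByExpr and tested the CSA minus untreated contrast on the 12 CD4 libraries (13175 genes) with a robust quasi-likelihood F test. The 2 difference tests used the 12 CD4 or all 24 libraries. The threshold was a Benjamini-Hochberg adjusted p of 0.05, two-sided. The biological coefficient of variation was 0.279. Levels of genes are TMM-scaled CPM, and marker levels are CPM of all counted pairs. Nothing says that pools beyond their mice were separate experiments, so p-values measure the spread between these pools. Pools carry different numbers in each group, so no pairing was used. Alternatives were RLE factors, no filter, no robust step, DESeq2 1.42.0, voom in limma 3.58.1, other sets of libraries and leaving out each pool.

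Genes named are the 12 highest and 12 lowest called genes whose mean log2 CPM is 3 or more and whose groups do not overlap, up to 3 called members per pathway list (those of smallest p), 18 genes of prior interest and the 3 genes of smallest p in each difference test. Of these genes, 1 is not reported here. Other members of the lists and markers that the text names were chosen after their values were seen. The members and the 43 lists were chosen with earlier results of these data known. The analysis was tested on simulated data. Promoter windows come from RefSeq (GRCm38.p6), matched by symbol for 9995 tested genes. Each SE is the size of the log2 fold change divided by the square root of its quasi-likelihood F, so it holds the spread between pools. Floors of 3 counts cover counting error only.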

Additional observations from a re-analysis of the deposited data

How the results depend on the processing

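No paired analysis was possible because the pools of the groups compared share no number. Of the 195 calls, RLE factors gave 195, no robust step 172, no filter 240 and all 24 libraries 196, of which 101 were among the 195. DESeq2 called 655 (389 higher, 266 lower), all 195 included. The 6 compared libraries alone gave 13 (12 higher, 1 lower; 12 shared), where 6 libraries estimate the spread. Voom called 156, with 39 lower. Leaving out 1 library gave 48 (without CSA pool 18) to 204 calls, 36 to 163 higher and 12 to 87 lower. The lowest numbers without other pools were 111 (81 higher, 30 lower) without CSA pool 17 and 40 lower without untreated pool 15. The cause was not tested. Of the 47 named genes called, 17 kept the call without any 1 of the 6 libraries and 4 in all 7 other settings. For the difference from CD8 cells, DESeq2 called 15 genes and leave-one-out fits 0 to 4, with 4 without untreated pool 14. For the difference with RUX, DESeq2 called 17, no filter 1 and leave-one-out fits 0 to 6, with 6 without untreated pool 15. No called named gene changed sign. Uncalled genes did: without 1 library, log2 values ranged from -0.219 to 0.026 for Fasl (0.018 without CSA pool 18, 0.026 without untreated pool 15), from -0.69 to 0.015 for Cish and from -0.473 to 0.158 for Bcl2, both highest without untreated pool 14. The all-gene median stayed between -0.01 and 0.01. With 3 pools a group, small changes at low level are beyond these data: a count of 3 is 0.1 to 0.165 CPM.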

Other observations

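Some called genes outside the lists, chosen here after their values were seen, are partners or relatives of genes described above. Hcst encodes DAP10, the signalling adaptor of NKG2D. It had 142, 145 and 187 CPM in CSA pools, against 72.3, 98.0 and 83.3 CPM in untreated pools (log2 0.91, SE 0.14, adjusted p = 0.00478). Slamf7, a receptor of cytotoxic lymphocytes and plasma cells, had 106, 150 and 156 CPM in CSA pools, against 69.1, 54.3 and 37.5 CPM in untreated pools (log2 1.35, SE 0.19, adjusted p = 0.00321). Lgals3, a galectin, had 449, 426 and 565 CPM in CSA pools, against 230, 217 and 186 CPM in untreated pools (log2 1.19, SE 0.11, adjusted p = 0.000247). Xdh, the xanthine dehydrogenase of purine breakdown, had 603, 775 and 615 CPM in CSA pools, against 355, 310 and 298 CPM in untreated pools (log2 1.05, SE 0.11, adjusted p = 0.000247). Tspan2 and Tspan3, both tetraspanin membrane proteins, moved in opposite directions, at 32.8, 36.0 and 37.9 CPM in CSA pools against 13.2, 13.1 and 14.7 CPM in untreated pools for Tspan2, and at 74.7, 67.9 and 64.6 CPM against 162, 144 and 179 CPM for Tspan3 (log2 1.38 and -1.23).

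Alad and Fech, enzymes of haem synthesis, also rose, Alad with 111, 87.0 and 96.2 CPM in CSA pools against 54.8, 61.1 and 68.5 CPM in untreated pools, and Fech with 89.9, 82.1 and 104 CPM in CSA pools against 53.2, 57.7 and 59.7 CPM in untreated pools (log2 0.68 and 0.69, adjusted p = 0.0319 and 0.0243). Erythroid sums were higher in the same pools, and their part was not tested. Enpp2, which encodes the secreted enzyme autotaxin, had 3.04, 3.15 and 4.21 CPM in CSA pools, against 9.88, 9.18 and 23.1 CPM in untreated pools (log2 -2.02, SE 0.32, adjusted p = 0.0063).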
